A study of Mus musculus with 7 samples.

Results

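The genes described here are 39 components of the cytoplasmic and nuclear mRNA decay machinery, from the enzymes that shorten the poly(A) tail to those that remove the cap and digest the transcript. They were chosen by gene symbol from knowledge of the pathway, with earlier results of these data known. All 39 were found among the 12151 genes listed in bulk RNA sequencing of isolated mouse hepatocytes, the cells that make up most of the liver, and all 39 were expressed highly enough to be tested. Libraries came from 2 groups. The ALAS1/2-KO group (n = 4) carried a conditional Alas1 allele whose exons 4 to 5 can be removed by Cre, was labelled as tamoxifen-treated, and had Alas2 lowered by injection of siRNA coupled to GalNAc, a sugar that hepatocytes take up. The WT group (n = 3) was labelled as untreated, so the parts of allele, siRNA and tamoxifen in any difference cannot be told apart. The sources used here give no Cre driver, strain, age or sex for the mice, and do not say whether each library is a separate mouse. The p-values therefore cover the variation among these 7 libraries, and it may be technical. The series concerns a role of ALAS1, the ubiquitous enzyme that starts heme synthesis, in small RNA-mediated silencing.

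Decay of most mRNAs begins at the poly(A) tail. PAN2-PAN3 trims long tails and the CCR4-NOT complex removes the rest, after which the decapping enzyme DCP2 opens the 5′ end to the exonuclease XRN1, or the exosome digests the body from the 3′ end. MicroRNA-loaded Argonaute uses the same route, because its partner TNRC6 binds PAN3 and the CCR4-NOT scaffold, and CCR4-NOT in turn holds the helicase DDX6. The BTG/TOB proteins are adapters that bind the deadenylase subunits CNOT7 and CNOT8. TOB1 and TOB2 also bind the poly(A)-binding protein PABPC1.

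Listed reads per library ran from 27933939 to 30195635 in ALAS1/2-KO and from 22916097 to 34048680 in WT, and no single library gave a member fewer than 38 reads. Levels are given as CPM (read counts scaled to a common library total, on the authors' scaling). Mitochondrially encoded genes took 16.8% to 27.3% of listed reads in ALAS1/2-KO and 31.9% to 43.2% in WT, so the choice of library scaling matters for every value below. Alas2 stood at 0.44 ± 0.26 CPM in ALAS1/2-KO and 11.3 ± 5.18 CPM in WT (SD, n = 4 and 3), with a log2 fold change of -4.51 (limma adjusted p = 0.0027). ALAS2 is the erythroid form of the enzyme, and the erythroid markers Hba-a1 and Hbb-bs summed to 2.48 to 5.67 CPM in ALAS1/2-KO and 8.76 to 33.4 CPM in WT (log2 fold changes -2.37 and -2.02, limma adjusted p = 0.0733 and 0.0522). Their part in the Alas2 difference was not tested. Alas1 was at 287, 332, 307 and 361 CPM in ALAS1/2-KO, against 280, 265 and 83.5 CPM in WT, so the whole-gene level was not lower (log2 fold change 0.80, limma adjusted p = 0.277). It does not check the loss of exons 4 to 5. The hepatocyte markers Alb, Ttr, Apoa1, Cps1 and Hnf4a were present in all libraries, with a summed level of 65800 to 70800 CPM in ALAS1/2-KO and 105000 to 112000 CPM in WT because Alb fell (log2 fold change -0.87). The other 4 were not lower, with log2 fold changes of 0.37 for Ttr, 0.40 for Apoa1, 0.42 for Cps1 and 0.18 for Hnf4a, none past the threshold. Summed markers of macrophages, endothelial cells and stellate cells were lowest in ALAS1/2-KO replicates 1 and 2. The 7 Kupffer cell and macrophage markers summed to 191 and 566 CPM in these libraries, to 1210 and 1130 CPM in ALAS1/2-KO replicates 3 and 4, and to 698 to 982 CPM in WT. The 6 endothelial markers summed to 54.4 and 121 CPM, to 228 and 182 CPM, and to 214 to 262 CPM in the same order. The 6 stellate and fibroblast markers summed to 31.7 and 65.4 CPM, to 151 and 106 CPM, and to 123 to 224 CPM. Every marker of these cell types had a log2 fold change below 0. The ranges were -0.63 to -0.29 for macrophage, -1.17 to -0.72 for endothelial and -1.50 to -1.08 for stellate markers. None of these markers passed the test. Their part in the results below was not tested except by the covariate described with the BTG/TOB genes. In bulk samples, fewer cells of a type and less RNA per cell cannot be told apart.

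The decay genes differed between the groups about as often as genes in general, and the differences that passed the test lay in the BTG/TOB adapters. Btg1 fell and Tob2 rose, by limma with Benjamini-Hochberg adjustment over 12105 genes and an adjusted p under 0.05. These 2 of 39 members make 5.13%, against 5.1% of all genes tested, of which 2.91% rose and 2.19% fell. The median log2 fold change (ALAS1/2-KO over WT) of the 39 was 0.06 (all genes tested, -0.02), with 20 above 0 and 19 below. The groups did not overlap for 9 members, or 23.1% (all genes tested, 22.7%), and 9 members had an unadjusted limma p under 0.05, also 23.1% (all genes tested, 23.7%). The members were thus called, and separated, about as often as genes in general. The 35 members outside the BTG/TOB group were set apart after the values were seen. Limma and limma voom on recovered reads each called 0 of them, which the split fixes, since both calls lie in the BTG/TOB group. Of the 35, 5 had an unadjusted p under 0.05, or 14.3% (all genes tested, 23.7%). The groups did not overlap for 6, or 17.1% (all genes tested, 22.7%). Log2 fold changes of the 35 ran from -0.44 to 0.36, and 20 of them had a 95% interval lying wholly within 0.5 of 0. Of all genes tested, 4214 of 12105 had such an interval, with a larger median SE (0.16, against 0.12 for the 35).

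**Figure D1:**
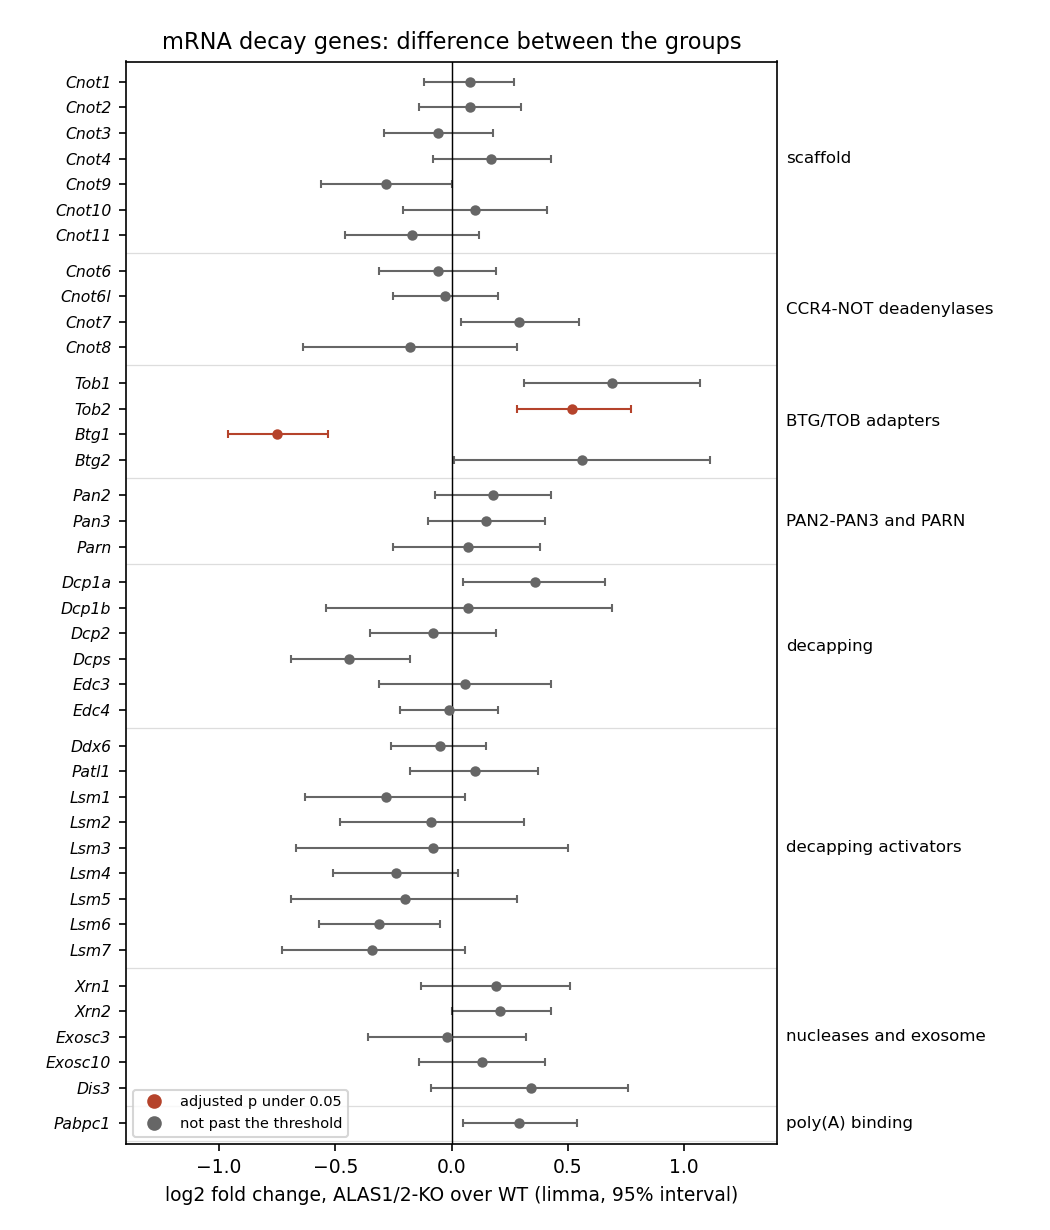
Log2 fold change (ALAS1/2-KO over WT, horizontal axis) of each of the 39 mRNA decay genes, grouped by role, with the 95% interval from limma. Red marks an adjusted p under 0.05, reached by Btg1 (-0.75) and Tob2 (0.52), while the other points lie between -0.44 (Dcps) and 0.69 (Tob1).

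The BTG/TOB adapters showed the widest differences of any role group, in opposite directions. These are small antiproliferative proteins made from short-lived mRNAs, and they bring CCR4-NOT to their targets. Btg1 stood at 30.9, 30.6, 28.2 and 29.7 CPM in ALAS1/2-KO replicates 1 to 4, against 45.3, 53.8 and 51.7 CPM in WT replicates 1 to 3. The ALAS1/2-KO libraries were tightly grouped and all lay below the lowest WT library. The means were 29.8 ± 1.22 CPM in ALAS1/2-KO and 50.3 ± 4.42 CPM in WT (SD, n = 4 and 3), and Btg1 was 1.68-fold lower (log2 fold change -0.75, SE 0.09, limma adjusted p = 0.00606). Btg1 passed whichever of the 7 libraries was left out, but only narrowly without WT replicate 2 (limma adjusted p = 0.0474). It passed in 17 of the 19 alternative settings. It missed the threshold after rescaling CPM to listed reads (-0.41, limma adjusted p = 0.0573), as did a replicate block (-0.75, limma adjusted p = 0.0768).

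Tob2, which can bind both PABPC1 and the CNOT7/CNOT8 deadenylases, stood at 46.2, 47.0, 47.8 and 41.1 CPM in ALAS1/2-KO, against 30.5, 36.0 and 28.7 CPM in WT. The groups did not overlap. It was 1.44-fold higher in ALAS1/2-KO (45.5 ± 3.02 CPM) than in WT (31.7 ± 3.79 CPM), with a log2 fold change of 0.52 (SE 0.11, limma adjusted p = 0.0344). That call lies close to the threshold: of the 7 fits without a library it held without ALAS1/2-KO replicate 1 (adjusted p = 0.0422), and without any other single library it was lost (limma adjusted p up to 0.107, log2 fold change 0.46 to 0.62). It was also lost with the replicate block (limma adjusted p = 0.111), with scaling without the 20 top and the mitochondrial genes (0.0533) and without limma's trend (0.064), and it held in 8 of the 19 alternative settings. The Tob2 exons share 207 bases with an antisense gene (Gm49476), and the sources used here do not say whether counting used strand.

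Tob1, the closest relative of Tob2, stood at 159, 180, 118 and 116 CPM in ALAS1/2-KO, against 91.4, 88.9 and 81.6 CPM in WT. Every ALAS1/2-KO library was above every WT library, and ALAS1/2-KO replicates 1 and 2 were the highest. The means were 143 ± 31.3 CPM in ALAS1/2-KO and 87.3 ± 5.08 CPM in WT (SD, n = 4 and 3). The difference, 1.61-fold, did not pass the threshold (log2 fold change 0.69, SE 0.17, limma adjusted p = 0.0526), and it was 0.42 (limma adjusted p = 0.0547) without ALAS1/2-KO replicates 1 and 2. It passed in 5 of the 19 alternative settings.

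Btg2, an antiproliferative gene known as an early response and p53-induced gene, stood at 210, 152, 110 and 106 CPM in ALAS1/2-KO, against 108, 92.3 and 83.8 CPM in WT. The groups overlapped, since ALAS1/2-KO replicate 4 lay under WT replicate 1. Btg2 did not pass (log2 fold change 0.56, SE 0.24, limma adjusted p = 0.207). Without ALAS1/2-KO replicates 1 and 2, the libraries with the lowest macrophage and endothelial marker levels, the log2 fold change of Btg2 was 0.19, while that of Btg1 was -0.79 and that of Tob2 0.49 (limma adjusted p = 0.407, 0.00452 and 0.0552). The part of those cells in the Btg2 difference was not tested beyond the covariate given below.

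Btg1 is also abundant in lymphocytes. Cd79a, part of the B cell receptor, stood at 0.21, 0.86, 0.70 and 0.49 CPM in ALAS1/2-KO, against 1.98, 2.82 and 3.02 CPM in WT, and fell (limma adjusted p = 0.0335). Cd79b, its partner, stood at 0.27 to 1.08 CPM in ALAS1/2-KO and 1.19 to 2.34 CPM in WT and did not pass (limma adjusted p = 0.304). The neutrophil markers S100a8 and S100a9 summed to 1.42 to 4.55 CPM in ALAS1/2-KO and 4.42 to 10.1 CPM in WT, and neither passed. The T and NK cell markers Cd3e, Cd3g, Trac and Nkg7 were not in the table. The part of blood cells in the Btg1 difference was not tested. A score over 24 markers was used as a covariate: 7 macrophage, 6 endothelial, 6 stellate, 3 B cell and 2 neutrophil. With few blood cell markers and no T or NK cell marker, it cannot separate the part of blood cells. With this covariate the log2 fold change of Btg1 was -0.80 and that of Tob2 0.49 (limma adjusted p = 0.00562 and 0.0691). Tob1 was at 0.49 and Btg2 at 0.12 (limma adjusted p = 0.133 and 0.706).

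**Figure D2:**
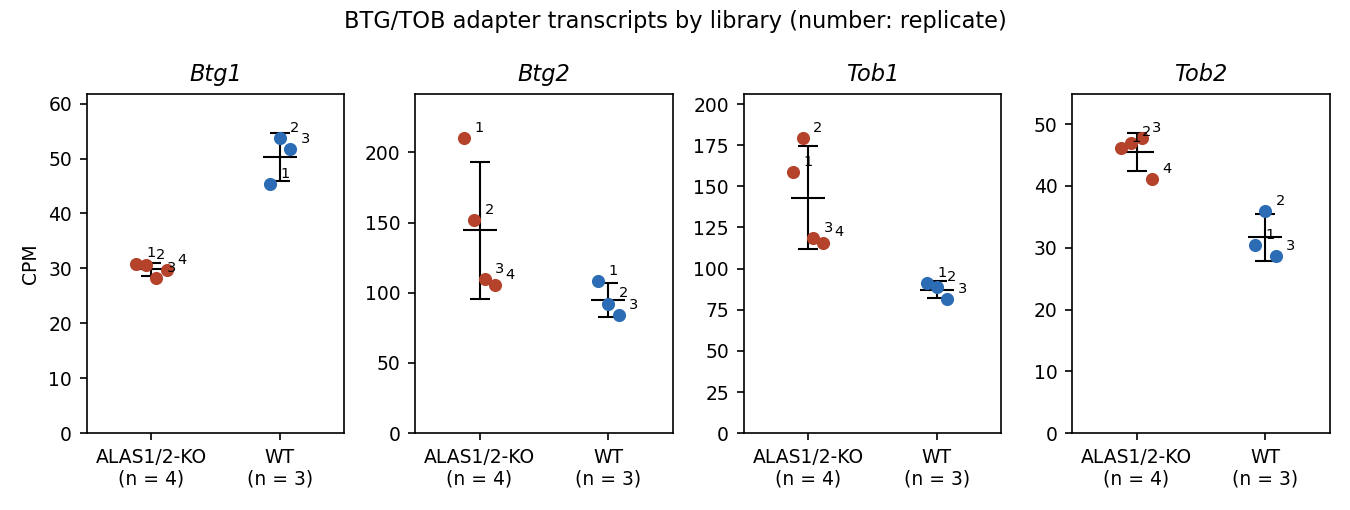
Levels in CPM of Btg1, Btg2, Tob1 and Tob2 in each library, with ALAS1/2-KO (n = 4) left of WT (n = 3); the small number is the replicate and bars give the mean and SD. Btg1 is lower in each ALAS1/2-KO library (28.2 to 30.9) than in any WT library (45.3 to 53.8), Tob1 and Tob2 are higher in each, and Btg2 overlaps.

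The start regions of these genes are shown because this family holds both calls and its members went opposite ways. The 250 bases before the RefSeq start (GRCm38.p6) are printed for Btg1, Btg2 and Tob1, 5′ to 3′ on the gene's strand. Capitals mark matches, on either strand, to the TATA box (letters TATAAA), the CCAAT box (spelled as its name), the GC box (letters GGGCGG), the core of the cAMP response element (letters TGACGT) and the E-box (letters CACGTG), and capitals run together where matches overlap. The Tob2 window is not shown because it lies in annotated exon sequence. The windows are chr10:96616751-96617000 (plus strand) for Btg1, chr1:134079156-134079405 (minus strand) for Btg2 and chr11:94211204-94211453 (plus strand) for Tob1.
Btg1: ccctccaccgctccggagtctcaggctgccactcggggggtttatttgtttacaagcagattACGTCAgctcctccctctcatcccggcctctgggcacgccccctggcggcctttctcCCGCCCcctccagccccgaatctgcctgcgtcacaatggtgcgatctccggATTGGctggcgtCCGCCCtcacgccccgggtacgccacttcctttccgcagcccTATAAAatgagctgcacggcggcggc
Btg2: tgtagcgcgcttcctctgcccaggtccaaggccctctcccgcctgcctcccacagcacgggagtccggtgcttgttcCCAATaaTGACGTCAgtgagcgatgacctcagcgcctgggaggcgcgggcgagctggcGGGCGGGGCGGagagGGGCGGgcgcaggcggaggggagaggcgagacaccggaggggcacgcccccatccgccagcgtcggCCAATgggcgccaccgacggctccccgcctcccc
Tob1: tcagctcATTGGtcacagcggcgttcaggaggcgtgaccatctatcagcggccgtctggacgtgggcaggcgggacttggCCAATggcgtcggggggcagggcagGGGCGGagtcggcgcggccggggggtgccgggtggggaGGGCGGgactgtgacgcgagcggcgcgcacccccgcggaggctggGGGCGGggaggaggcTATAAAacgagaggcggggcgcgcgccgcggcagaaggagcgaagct

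Btg1 and Tob1 each held a TATA match, starting 26 and 47 bases before the start, and among the 32 members with a RefSeq window no other gene did. Over all 32851 windows of this length in the RefSeq table, 12.4% held one. The TGACGT core was present in Btg1 and Btg2 and in 4 of the 32 members, against 6.5% of all windows. In Btg2, 2 overlapping matches on opposite strands spelled the full palindrome TGACGTCA. GC boxes were found in the windows of 24 of 32 members, against 32.7% of all windows, and CCAAT boxes in 12 of 32, against 33.8%. An E-box was in 1 of 32 members, against 6.0% of all windows, and in none of the 3 printed. A member was counted if any of its windows matched, whereas the shares of all windows are per window, so the measures differ. The printed windows of Btg1, Btg2 and Tob1 were 65.2%, 73.2% and 73.6% G or C, against a median of 52.4% over all windows. A match is a description of the letters and not of a factor bound there.

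The CCR4-NOT scaffold and its modules were close to level between the groups. Cnot1, the scaffold on which the complex is built, stood at 50.0, 49.6, 45.2 and 46.0 CPM in ALAS1/2-KO, against 44.1, 45.3 and 46.2 CPM in WT. The groups overlapped and the log2 fold change was 0.08 (95% interval -0.12 to 0.27, limma adjusted p = 0.623). Cnot2 and Cnot3, which form the module that contacts target-bound proteins, had log2 fold changes of 0.08 and -0.06. Cnot10 and Cnot11, the module at the other end of the scaffold, had 0.10 and -0.17. Cnot9, which binds tryptophans of TNRC6, had the largest difference of the group, at 10.2 ± 1.08 CPM in ALAS1/2-KO and 12.4 ± 1.09 CPM in WT. Its log2 fold change was -0.28 (95% interval -0.56 to 0, unadjusted p = 0.0527, limma adjusted p = 0.217). Cnot4, an E3 ubiquitin ligase that associates with the complex, had 0.17. Of these 7 genes limma called 0, as did limma voom, and 0 had an unadjusted p under 0.05. Over all genes tested, limma called 5.1%, and 23.7% had an unadjusted p under 0.05. Counts in 7 genes are too few to set against these shares.

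The 4 catalytic deadenylases of CCR4-NOT come as pairs of paralogs. CNOT6 and CNOT6L are the EEP-type nucleases, and CNOT7 and CNOT8 the DEDD-type nucleases that bind BTG/TOB proteins. Cnot7 stood at 25.7, 25.1, 20.4 and 25.7 CPM in ALAS1/2-KO, against 19.9, 18.5 and 20.6 CPM in WT. The groups overlapped at ALAS1/2-KO replicate 3, and Cnot7 did not pass (log2 fold change 0.29, SE 0.11, unadjusted p = 0.0286, limma adjusted p = 0.163). Its partner Cnot8 varied more between libraries, at 24.1, 37.2, 25.0 and 20.4 CPM in ALAS1/2-KO and 25.6, 29.5 and 33.9 CPM in WT (log2 fold change -0.18, SE 0.20, limma adjusted p = 0.625). Cnot6 stood at 27.5, 26.7, 25.6 and 26.7 CPM in ALAS1/2-KO, against 23.7, 29.7 and 30.3 CPM in WT. Cnot6l stood at 26.0, 24.9, 21.7 and 24.3 CPM in ALAS1/2-KO, against 22.9, 25.1 and 26.0 CPM in WT. Both of these overlapped between the groups, with log2 fold changes of -0.06 and -0.03.

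Ratios of paralogs within a library do not depend on how libraries are scaled, apart from quantile normalization, and are given as a description with no test. The Btg1/Btg2 ratio set the groups apart. On the log2 scale it was -2.77, -2.31, -1.96 and -1.83 in ALAS1/2-KO replicates 1 to 4, against -1.25, -0.78 and -0.70 in WT replicates 1 to 3. The mean difference was -1.31, and it was -0.99 without ALAS1/2-KO replicates 1 and 2. Per kilobase of the longest coding transcript, Btg1 was at 0.118 times the level of Btg2 in ALAS1/2-KO and at 0.292 times in WT. The Cnot7/Cnot8 log2 ratio was 0.09, -0.57, -0.30 and 0.34 in ALAS1/2-KO, against -0.36, -0.67 and -0.72 in WT, and the groups overlapped. Tob1 per kilobase was 5.61 times Tob2 in ALAS1/2-KO and 5.01 times in WT, so the ratio of the pair was close in both groups, and the log2 ratios overlapped (1.31 to 1.93 in ALAS1/2-KO and 1.31 to 1.58 in WT). The Cnot6/Cnot6l and Dcp1a/Dcp1b ratios also overlapped, with mean log2 differences of -0.03 and 0.29.

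**Figure D3:**
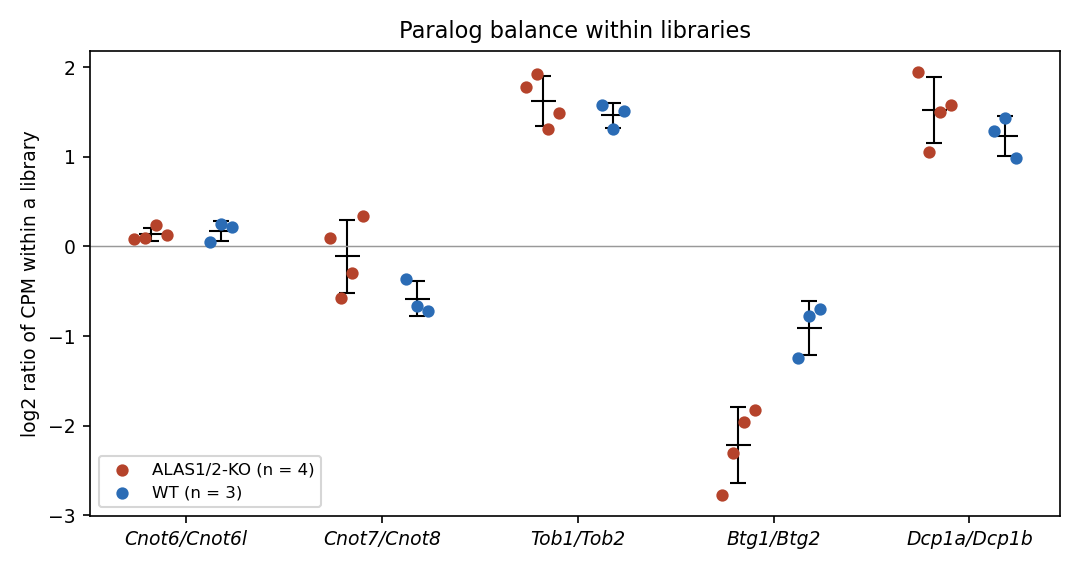
Log2 ratio of CPM within each library for 5 paralog pairs (vertical axis), ALAS1/2-KO (n = 4) left of WT (n = 3) in each pair, with mean and SD. Btg1/Btg2 is the pair without overlap, at -2.77 to -1.83 in ALAS1/2-KO and -1.25 to -0.70 in WT.

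The other deadenylases and the poly(A)-binding protein showed small differences. Pan2, the catalytic subunit of PAN2-PAN3, stood at 38.6, 41.0, 33.3 and 38.5 CPM in ALAS1/2-KO, against 30.3, 32.9 and 36.8 CPM in WT (log2 fold change 0.18, limma adjusted p = 0.349). Pan3, the subunit that TNRC6 contacts, and Parn, a nuclease that trims small and oligoadenylated RNAs, had log2 fold changes of 0.15 and 0.07. Pabpc1, which coats the poly(A) tail, stood at 220, 184, 192 and 192 CPM in ALAS1/2-KO, against 154, 152 and 176 CPM in WT. All 4 ALAS1/2-KO libraries were above the WT libraries, but Pabpc1 did not pass (log2 fold change 0.29, SE 0.11, unadjusted p = 0.0242, limma adjusted p = 0.151). Per kilobase it was the most abundant member, at 69.9 CPM in ALAS1/2-KO and 57.0 CPM in WT. Tob1 (62.5 and 38.2 CPM per kilobase) and Btg2 (52.7 and 34.5) came next, and all others were at 15.2 or less in both groups.

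Decapping genes included differences both ways, and none passed. Edc4, the scaffold of the decapping complex and the most abundant of its 6 genes here by CPM, stood at 19.9, 22.2, 19.0 and 20.5 CPM in ALAS1/2-KO, against 19.8, 21.2 and 20.4 CPM in WT (log2 fold change -0.01, 95% interval -0.22 to 0.20). Dcp2, the catalytic subunit, had -0.08 (95% interval -0.35 to 0.19), and Edc3, an enhancer of decapping, had 0.06. Dcp1a, the activator of DCP2, stood at 7.38, 7.17, 7.33 and 6.93 CPM in ALAS1/2-KO, against 4.85, 5.76 and 6.30 CPM in WT. Its groups did not overlap (log2 fold change 0.36, SE 0.13, unadjusted p = 0.0261, limma adjusted p = 0.156). Its paralog Dcp1b was among the lowest members, at 1.90, 3.45, 2.60 and 2.31 CPM in ALAS1/2-KO, against 1.98, 2.14 and 3.16 CPM in WT (log2 fold change 0.07, SE 0.27). Dcps, the scavenger that hydrolyses the cap left after 3′ to 5′ decay, stood at 7.65, 7.08, 7.73 and 6.86 CPM in ALAS1/2-KO, against 10.5, 9.41 and 9.93 CPM in WT. Its groups were well separated, but it did not pass (log2 fold change -0.44, SE 0.11, limma adjusted p = 0.0622). Dcps passed with scaling that leaves out the 20 most abundant and mitochondrial genes (-0.50, limma adjusted p = 0.0482) and with array weights (-0.40, limma adjusted p = 0.0297), and rescaling CPM to listed reads left it at -0.10 (limma adjusted p = 0.639).

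Among decapping activators, the DDX6 helicase, which links CCR4-NOT to decapping and represses translation, was level. Ddx6 stood at 57.2, 58.0, 52.0 and 54.8 CPM in ALAS1/2-KO, against 55.1, 61.7 and 56.1 CPM in WT (log2 fold change -0.05, 95% interval -0.26 to 0.15). Patl1, the bridge between DDX6 and the LSM ring, had 0.10. LSM1 to LSM7 form the cytoplasmic ring that binds oligoadenylated 3′ ends, and LSM2 to LSM7 also form the nuclear U6 ring with LSM8. Limma called 0 of these 7, as did limma voom, and 1 had an unadjusted p under 0.05, or 14.3%. The shares over all genes tested were 5.1% called by limma and 23.7% with an unadjusted p under 0.05. All 7 had log2 fold changes below 0, from -0.34 to -0.08 with a median of -0.24, but 6 of them (all but Lsm7) were above 0 once CPM were rescaled to listed reads, which moved the median of all genes to 0.32, and Lsm3 and Lsm5 were above 0 with quantile normalization. Of all genes tested, 6300 of 12105 lay below 0. Lsm6 stood at 14.1, 13.1, 12.3 and 14.0 CPM in ALAS1/2-KO, against 16.3, 19.0 and 14.7 CPM in WT, with no overlap (unadjusted p = 0.0257, limma adjusted p = 0.155). Lsm7, at 3.05 to 4.06 CPM in ALAS1/2-KO and 4.07 to 4.68 CPM in WT, did not overlap either (limma adjusted p = 0.273). Lsm3 and Lsm5, at 1.66 to 2.82 CPM in all libraries, rest on 48 to 88 reads a library, so their intervals were wide (-0.67 to 0.50 and -0.69 to 0.28).

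The nucleases that finish decay also overlapped or missed the threshold. Xrn2, the nuclear 5′ to 3′ exonuclease, stood at 31.1, 28.4, 29.7 and 33.5 CPM in ALAS1/2-KO, against 27.6, 25.0 and 26.8 CPM in WT. The groups did not overlap, and it did not pass (log2 fold change 0.21, SE 0.09, limma adjusted p = 0.215). Its cytoplasmic counterpart Xrn1 had 0.19 (limma adjusted p = 0.448), with ALAS1/2-KO at 12.6 to 15.8 CPM and WT at 11.3 to 15.3 CPM. In the exosome, the core subunit Exosc3 had -0.02, the nuclear exonuclease Exosc10 0.13, and the catalytic subunit Dis3 0.34 (SE 0.19, limma adjusted p = 0.308).

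**Figure D4:**
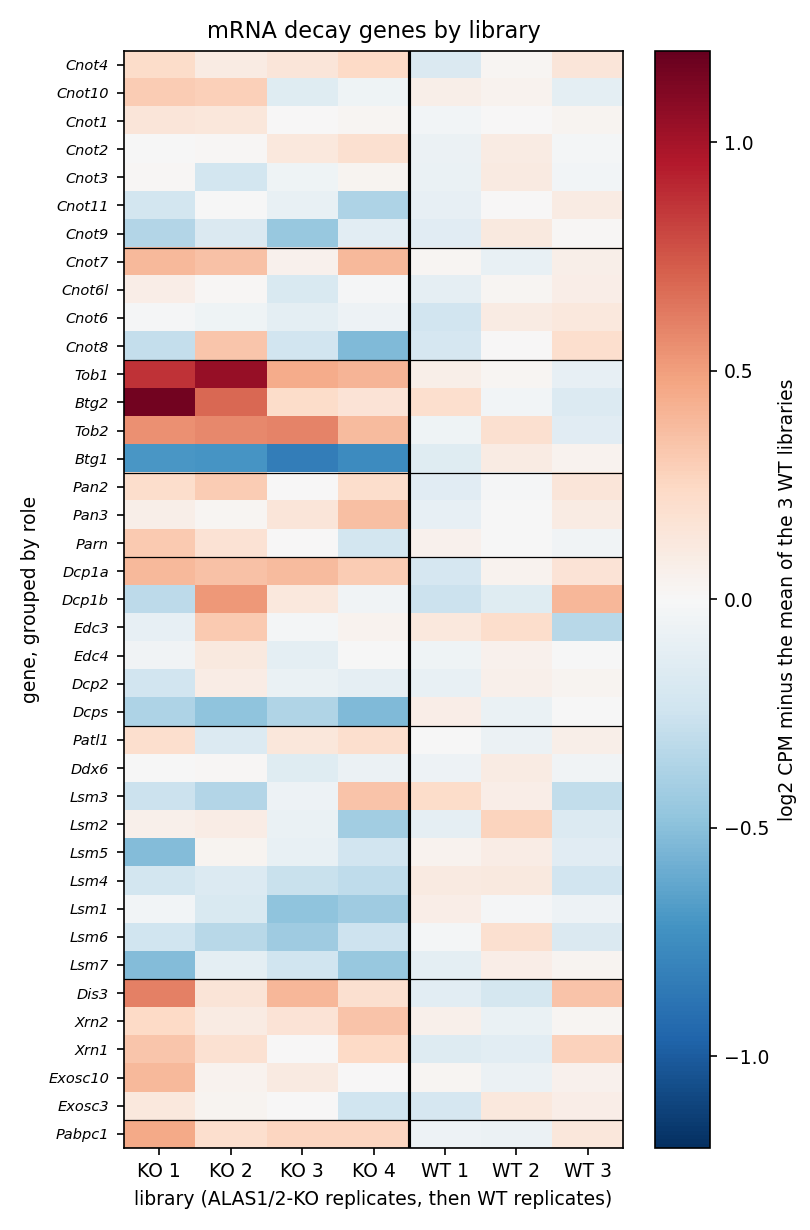
Log2 CPM of each of the 39 genes in each library minus the mean of the 3 WT libraries, genes grouped by role, with ALAS1/2-KO replicates left of WT replicates. Tob1 and Btg2 are darkest in ALAS1/2-KO replicates 1 and 2, whereas Btg1 is lower by a like amount in all 4 ALAS1/2-KO libraries.

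Across libraries the members moved little as a body. Their median deviation from the WT mean, on the log2 scale, was 0.06, 0.09, -0.02 and 0.00 in ALAS1/2-KO replicates 1 to 4 and -0.06, 0.03 and 0.03 in WT replicates 1 to 3. Over all genes tested the median deviation lay between -0.01 and 0.01 in every library. The exons of 11 members, among them Cnot7, Dcps, Edc3 and Dis3, overlap those of a neighbouring or antisense gene. Where that gene lies on the opposite strand, reads of the pair cannot be told apart without strand. The neighbour of Lsm3, and a microRNA gene overlapping Cnot3, lie on the same strand, so strand would not separate those reads.

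Further genes of mRNA decay were read from a list of exosome, nonsense-mediated decay, poly(A), AU-rich element and uridylation factors. Of 64 tested, 1 rose and 2 fell in limma, or 4.69% against 5.1% of all genes tested, with a median log2 fold change of 0.06 (all genes tested, -0.02). Pabpc4, a second cytoplasmic poly(A)-binding protein, rose, at 30.2, 23.7, 27.4 and 32.2 CPM in ALAS1/2-KO against 21.2, 16.6 and 16.1 CPM in WT (log2 fold change 0.66, limma adjusted p = 0.0369). Pnrc1, a proline-rich coactivator related to the decapping cofactor PNRC2, fell, at 39.5, 42.5, 33.9 and 36.3 CPM in ALAS1/2-KO against 50.0, 67.0 and 80.7 CPM in WT (log2 fold change -0.77, limma adjusted p = 0.0358). Neither gene overlapped between the groups. Mpp6 also fell (log2 fold change -0.50, limma adjusted p = 0.0218), but in the mouse this symbol belongs to a membrane scaffold protein and not to the exosome cofactor of that name, which is Mphosph6, so 2 of the 3 calls are of decay factors. These calls depended on single libraries and settings. Without WT replicate 2, ALAS1/2-KO replicate 3 or with the replicate block, limma called 0 of the 64. Without ALAS1/2-KO replicate 4, WT replicate 3 or limma's trend, neither Pnrc1 nor Pabpc4 passed. Pnrc1 was also lost without ALAS1/2-KO replicate 2 and after rescaling CPM to listed reads, and Pabpc4 with the marker covariate.

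**Figure D5:**
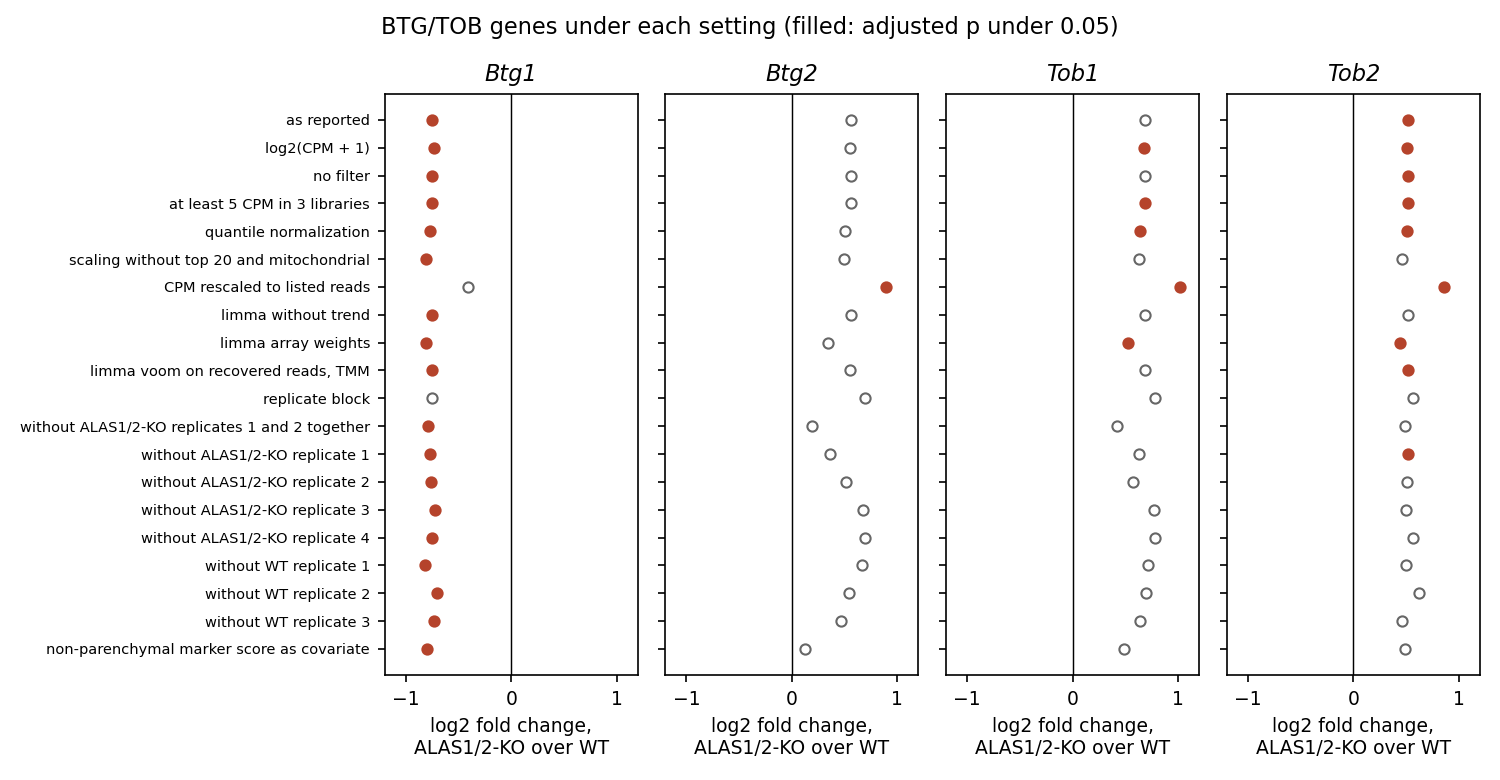
Log2 fold change (ALAS1/2-KO over WT) of Btg1, Btg2, Tob1 and Tob2 as reported and under each of 19 alternative settings, filled where the adjusted p is under 0.05. No gene changes sign: Btg1 runs from -0.82 to -0.41 and is filled in 17 of 19 alternatives, Tob2 in 8, Tob1 in 5 and Btg2 in 1.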

How the data were processed

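The authors deposited 1 table of log2 CPM values (counts scaled to a common library total, with a small prior) for 12151 genes in 7 libraries. Per the submitters' processing notes, cutadapt and HISAT2 were used with mm10; the sources used here give neither versions nor the read counter and strand setting. Per the labels' protocols, libraries were made with a TruSeq RNA kit. Off the log2 scale and less a floor of 0.0676 CPM, at least 99.99% of values in each column were whole reads within 0.01 read. Genes at 1 CPM or more in at least 3 libraries were tested on the deposited log2 values with limma 3.58.1 (R 4.3.3; intensity trend, robust, two-sided, Benjamini-Hochberg over 12105 genes). limma voom on the recovered reads, with TMM scaling computed in R, called 634 genes, against 617. Fold changes include the deposited prior. The procedure was tested on simulated data.

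Members and lists were chosen with earlier results of these data known. Library values were given for called genes, for members with no overlap and an unadjusted p under 0.05, for the most abundant member of each role and for paralogs; others were added after seeing the values. Gene lengths and overlaps came from GENCODE M21 (GRCm38), and start regions from RefSeq. The marker score covariate was an alternative chosen after seeing the data.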

Additional observations from a re-analysis of the deposited data

Results flagged for a closer look

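Cnot7 was the single member, of 39 examined along with 5 paralog ratios, in which 1 of the 4 ALAS1/2-KO libraries lay far from the others. ALAS1/2-KO replicate 3 stood at 20.35 CPM and the other 3 at 25.1 to 25.7 CPM, so the gap made up 0.89 of the whole range, above Dixon's critical value for 4 samples. WT libraries stood at 18.5 to 20.6 CPM. Chance flags about 1 in 20 groups. Without that library the log2 fold change of Cnot7 was 0.38 (limma adjusted p = 0.0896), against 0.29 with it.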

How the results depend on the processing

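Of 737 member values over 19 alternative settings, 657 kept their sign and side of the threshold, and 18 of 39 members kept their sign in every setting. The 657 include members called in neither fit. Of the 2 calls, that of Btg1 held in 17 of the 19 settings and that of Tob2 in 8. As reported, limma called 617 genes (57.1% higher), 2 members and 3 genes of the further decay list, 1 of them Mpp6. Rescaling CPM to listed reads takes off the authors' library scaling. It raised the median of all genes from -0.02 to 0.32. It called 2739 genes (92.6% higher), 10 members and 18 further decay genes. Leaving the 20 most abundant and mitochondrial genes out of the scaling called 564 genes (42.2% higher), 2 members (Btg1 and Dcps) and 3 further decay genes. Array weights called 2001, 6 and 12. Limma without trend called 355, 1 and 1. A replicate block called 72, 0 and 0. After the mean of its group was taken off every gene, same-numbered libraries correlated at -0.03, 0.05 and 0.18. Differently numbered libraries correlated at -0.33 to 0.36, so the numbers were not taken as pairs. Without ALAS1/2-KO replicates 1 and 2 together the counts were 1130, 1 and 5, and with the marker score covariate 798, 1 and 2. Leaving out 1 library gave 100 (without WT replicate 2) to 802 (without ALAS1/2-KO replicate 1) genes, 1 to 2 members and 0 to 3 further decay genes. The causes were not tested.

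These members changed sign, none of them called. With CPM rescaled to listed reads the log2 fold changes were 0.28 for Cnot3, 0.27 for Cnot6, 0.31 for Cnot6l, 0.16 for Cnot8, 0.06 for Cnot9, 0.16 for Cnot11, 0.25 for Dcp2, 0.32 for Edc4, 0.28 for Ddx6 and 0.31 for Exosc3. In the same setting they were 0.05, 0.24, 0.24, 0.10, 0.12 and 0.02 for Lsm1 to Lsm6. Quantile normalization gave 0.19 for Lsm3, 0.05 for Lsm5 and 0.05 for Exosc3. Scaling that left out the 20 top and the mitochondrial genes gave -0.01 for Edc3. Array weights gave -0.04 for Cnot10, -0.02 for Parn and -0.06 for Edc3. The replicate block gave 0.02 for Lsm2 and 0.05 for Exosc3. Without ALAS1/2-KO replicates 1 and 2, values were -0.10 for Cnot10, -0.11 for Parn and 0.14 for Lsm3. The covariate gave -0.09 for Cnot10, -0.11 for Parn, 0.05 for Lsm3 and -0.01 for Exosc10. Leaving out 1 library gave ranges of -0.17 to 0.00 for Cnot6, -0.08 to 0.03 for Cnot6l, -0.02 to 0.16 for Parn, -0.08 to 0.27 for Dcp1b, -0.11 to 0.16 for Edc3, -0.05 to 0.02 for Edc4, -0.17 to 0.05 for Lsm2, -0.23 to 0.03 for Lsm3 and -0.12 to 0.05 for Exosc3. The 5 paralog ratios moved by less than the SD pooled over both groups in every setting run on them. Without ALAS1/2-KO replicates 1 and 2, however, the Tob1/Tob2 difference was -0.06 (0.16 as reported) and the Btg1/Btg2 difference -0.99 (-1.31), moves larger than the WT SD of 0.14 and 0.30. Depth limits Dcp1b, Lsm3 and Lsm5 most.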

Other observations

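Noct, a clock-regulated gene first described as a deadenylase and named here after its values were seen, had the largest difference among the 64 further decay genes. It stood at 46.7, 29.7, 40.1 and 52.1 CPM in ALAS1/2-KO, against 29.7, 18.1 and 14.7 CPM in WT (log2 fold change 1.05, limma adjusted p = 0.0731). The lowest ALAS1/2-KO library and the highest WT library were about level.

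Pnrc2, the decapping and nonsense-mediated decay cofactor related to Pnrc1, also named after its values were seen, stood at 23.9 ± 1.74 CPM in ALAS1/2-KO and 31.4 ± 3.81 CPM in WT (SD, n = 4 and 3). Its log2 fold change was -0.39 and it did not pass (limma adjusted p = 0.0879).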
